A study of Mus musculus with 8 samples.

Results

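Peaks of the m6A mark that recurred in every one of 4 libraries were gathered into regions, and the genes that held at least 4 such regions were taken as multiply methylated transcripts. The regions were chosen on measured values: peaks with at least 1 base in common and the same strand were linked across the 4 lists, a region was called shared when all 4 lists held a peak in it, and genes were selected by their number of shared regions. The rule gave 572 regions in 117 genes, out of 4541 shared regions in 2913 genes, and out of 13116 regions in 5987 genes in all. The multiply methylated genes were thus 4.02% of the genes with a shared region, and they held 12.6% of the shared regions. Number of regions, their presence in all 4 lists and the peaks that make them up were all used by the rule, so they are given here as a description and without a test.

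The muscle was gastrocnemius, a calf muscle, of male C57BL/6 mice aged 10 weeks. Denervated muscle was collected 14 days after the nerve supply was interrupted, and innervated muscle came from the opposite leg as the control. RNA was enriched with an antibody against the mark and sequenced beside unenriched input RNA (MeRIP-seq), with 2 enriched libraries per group, so that 4 peak lists were analysed. The lists held 9327 and 10300 peaks for innervated replicates 1 and 2, and 9804 and 9496 peaks for denervated replicates 1 and 2. The labels do not say that the replicate numbers mark separate animals, so p-values measure no more than how far these samples lie apart, and that may be technical spread. Read depth and transcript abundance are unknown from peak lists. A missing peak is therefore no sign that a transcript lacked the mark or was absent.

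N6-methyladenosine is the most common internal modification of messenger RNA and is written while the RNA is made, by a nuclear complex around Mettl3 and Mettl14 that prefers an adenosine inside a short consensus. The mark accumulates in long internal exons and around the stop codon, and reader proteins of the YTH family bind it and influence the decay, splicing and translation of the transcript. Transcripts with very long coding exons or long last exons are known for carrying many sites. The tissue label was checked against markers of the muscle fibre: Acta1, Ckm, Ttn, Myh4, Ryr1 and Neb, genes of contractile and calcium-handling proteins, had 0 peaks in every list. These markers therefore neither support nor oppose the tissue label. Of 35 genes listed for the sarcomere and its junctions, 13 had a peak, 9 had a shared region and 0 had 4 or more. That list leaves out Lmod3, a thin filament gene with 4 shared regions, so the 0 holds for the list only.

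Sequence was at hand for the start of RefSeq transcripts (windows from 250 bases before to 50 bases after a start site, assembly GRCm38.p6) and for miRNAs, and 86 of the 117 genes had such a window. Of the 572 regions, 8 reached into the window of their gene, in Lats2, Hk2, D830031N03Rik, Plin4, Ski, Ppp2r3a, Zbtb1 and Nup153. The windows were searched on the transcript strand for GGAC, a core form of the m6A consensus, and 3 of the 8 regions held it in the bases shared with the window. The 30 bases around each match are shown because they are the stretches of these regions for which letters can be set beside a peak, with the match in capitals. They lie at chr6:82774406-82774435 on the minus strand for Hk2, with the match 32 bases after the start site, at chr13:46727815-46727844 on the minus strand for Nup153, 18 bases after it, and at chr12:76370449-76370478 on the plus strand for Zbtb1, 58 bases before it.
Hk2: tgctggagtctcaGGACaccacaggctacc
Nup153: gcgccagcggcctGGACtgcggcagcgacg
Zbtb1: ggggaaggctggcGGACgccgccgcgaact
A match describes letters and not a methylated site: of 32851 start windows in RefSeq, 18.9% hold GGAC in their last 50 bases and 44.1% in their last 155. The stretches shared with a window ran from 17 bases in Ppp2r3a to 155 in Zbtb1, so 3 of 8 cannot be set against 1 such share.

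One region also overlapped a miRNA hairpin on the same strand. The 3′-most region of Chpf2, a gene of chondroitin chain synthesis, ran over chr5:24591693-24592436, and the hairpin of Mir671 lies inside it at chr5:24592114-24592211. The mature arms follow, with the seed (bases 2 to 8) in capitals, because a peak over this stretch cannot be given to the host transcript or to the miRNA precursor from a peak list.
mmu-miR-671-5p: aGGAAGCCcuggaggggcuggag
mmu-miR-671-3p: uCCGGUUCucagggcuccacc
The arms do not share a seed.

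Most of the 117 genes lay just above the limit. Exactly 4 shared regions were held by 64 genes, 5 by 28, 6 by 15, 7 by 5 and 8 by 3, and the 2 genes with most were Ahnak with 13 and Fat4 with 14. Below the limit, 1829 genes had 1 shared region, 733 had 2 and 234 had 3. Just inside it, with 4 regions, the genes with most covered bases were Gm608 (named Usf3 in RefSeq; 5037 bases), Arhgap35 (4700) and Alpk2 (4602). Just outside it, with 3 regions, stood Plec (11030), Ankrd11 (4983) and Arhgef17 (4603). Plec, a giant cytoskeletal linker, thus had more sequence under peaks than any member except Ahnak, but in fewer separate regions. Of the 880 regions of any kind in the 117 genes, 65.0% were shared, against 34.6% of all regions, a share that the rule itself raised. RefSeq classes 115 of the genes as protein coding and 2 (Tug1 and B230354K17Rik) as long noncoding RNAs.

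**Figure D1:**
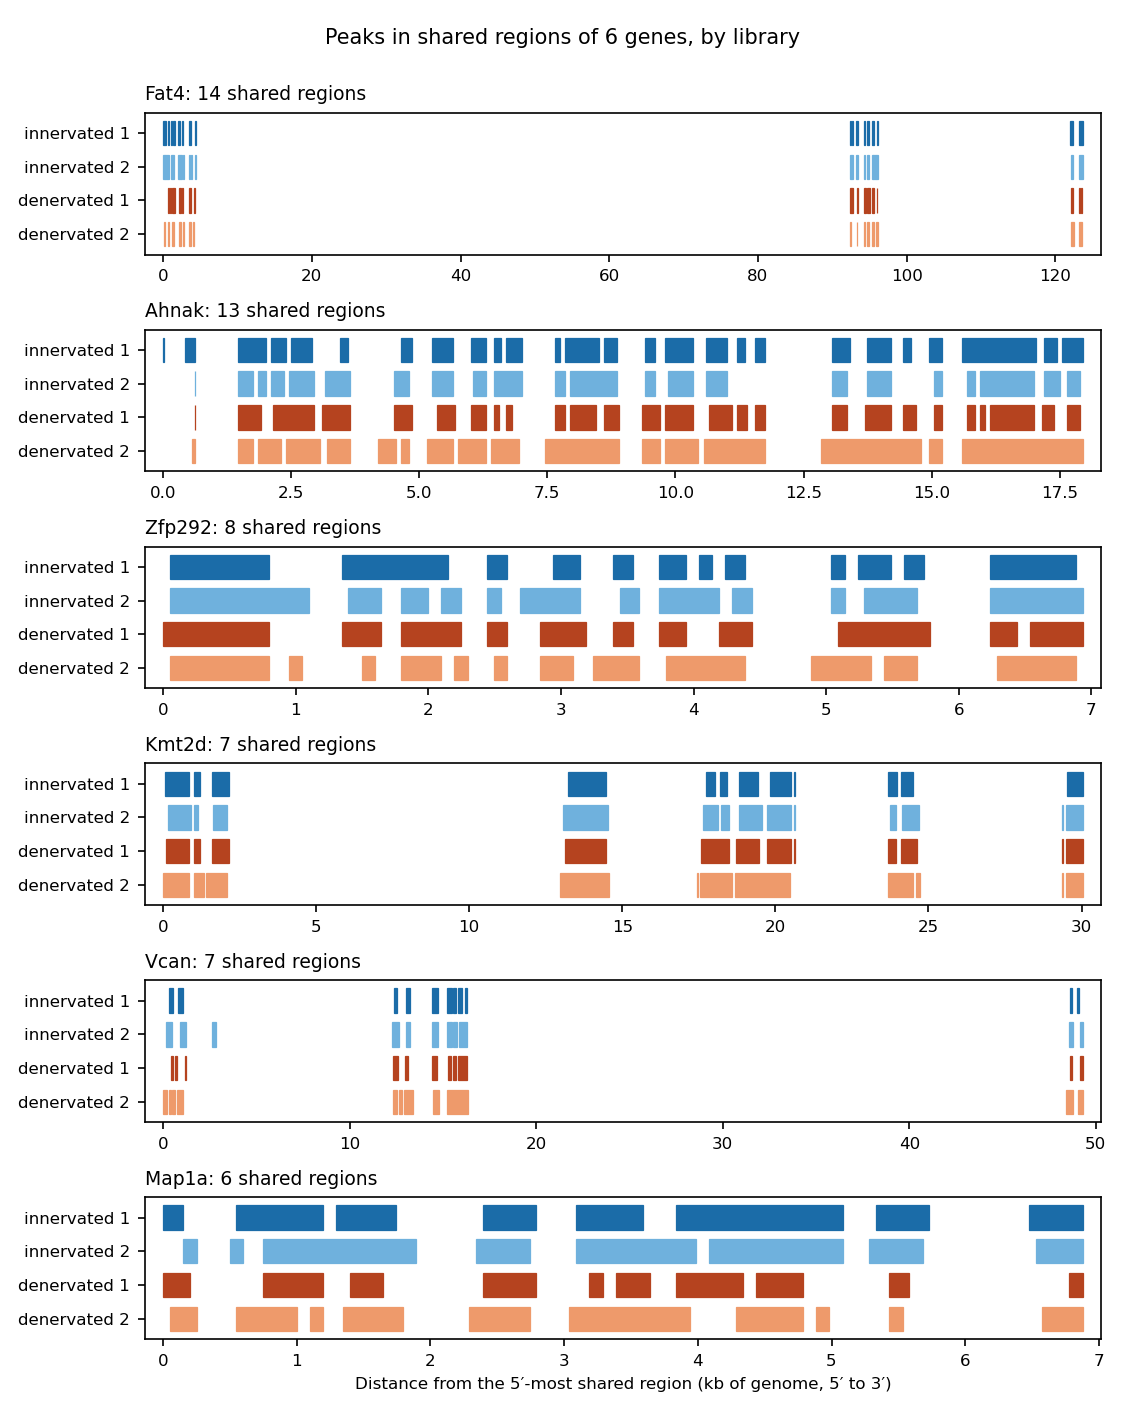
Peaks of each library in 6 genes, plotted as bars along the genome from the 5′-most shared region in kilobases, 1 row per library. Fat4 has 14 shared regions in 3 separate groups, Ahnak 13 over 17947 bases in 2 groups, and Zfp292 and Map1a have all of theirs in 1 run.

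By function, zinc finger and homeobox proteins were the group with most genes, followed by histone and chromatin regulators. Roles were assigned by hand after the members were known, so they are a description. Zinc finger and homeobox proteins gave 25 genes with 118 regions, histone and chromatin regulators 16 genes with 83, and other transcription factors and cofactors 10 genes with 47. Cytoskeletal, microtubule and centrosome proteins gave 13 genes with 76 regions. Cadherins with matrix and surface proteoglycans gave 7 genes with 48, and kinases and other signalling proteins gave 14 genes with 58. Enzymes, membrane and trafficking proteins followed with 12 genes and 50 regions, RNA-processing and nuclear pore proteins with 5 genes and 21 regions, and the interferon-inducible Schlafen and SAMD9 family with 2 genes and 9 regions. The remaining 11 coding genes, with 53 regions, had no role assigned.

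The zinc finger share can be read without the hand assignment. Genes whose symbol has a zinc finger prefix were 20 of the 117 (17.1%), beside 161 of the 2796 other genes with a shared region (5.76%). Among the listed zinc finger and homeobox transcription factors, 29 had a shared region and 12 of these (41.4%) had 4 or more. Among the listed chromatin regulators it was 9 of 39 (23.1%), among giant cytoskeletal scaffolds 4 of 15 (26.7%), and among large cadherins 4 of 8 (50%). The same share over all genes was 4.02%. All gene lists were chosen with earlier results of these data known, so the shares are a description and no support for a theme. Growth factor and Wnt receptors (26 genes with a shared region), insulin and mTOR adaptors (13), axon guidance genes (13) and ubiquitin ligases (11) had 0 with 4 or more. In all, 34 of the 117 genes were on a list and 83 were on none.

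Markers of other cell types gave 2 members out of 18 with a shared region (11.1%, beside 4.02% of all genes), over 7 lists. Of the endothelial and perivascular markers, 8 had a shared region and 1, Cspg4 (the NG2 proteoglycan of pericytes), had 4 or more. The adipocyte list had 2 with a shared region and 1 member, Plin4, a lipid droplet coat protein. Fibroblast (4 with a shared region), macrophage (2), Schwann cell (1), erythroid (1) and satellite cell (0) markers gave no member.

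Histone methyltransferases of the KMT2 family, which place methyl groups on lysine 4 of histone H3 at enhancers and promoters, had the most regions among the chromatin genes. Kmt2c had 8 regions, over 90140 bases on chromosome 5, and Kmt2d had 7, over 30033 bases on chromosome 15. Kmt2a had 7 regions on chromosome 9 from 44805653 to 44822264, and 5 of these lay in 1 group at 75.9 to 80.4% of the gene. Kmt2d was the more heavily covered: its regions summed to 8047 bases, against 3852 in Kmt2c and 3555 in Kmt2a. Setd1b and Ash1l, also histone methyltransferases, had 5 each, as did Nsd1, which methylates lysine 36, and Kat6b, a histone acetyltransferase. Ep300, the p300 acetyltransferase, and Chd6, a chromatin remodeller, had 4.

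Among the DNA-binding proteins, Zfp292 carried 8 regions in a single run of 6934 bases, from 34804956 to 34811889 on chromosome 4, with gaps of 49 to 448 bases. The run lay between 89.7% and 97.3% of the gene span. Rlf had 6 regions in 4639 bases and Zfp865 had 6 in 4019 bases, again in 1 run each. The large homeobox proteins Zfhx3 and Zfhx4 differed from these: their 6 regions formed 5 groups each, spread over 164076 and 173462 bases. Hivep1, a zinc finger protein that binds enhancers of immune genes, had 6 regions in 3 groups. Zfp407 had its 6 regions within 4377 bases at 7.07 to 8.06% of the span, the smallest footprint of any member as a share of the gene. That holds for shared regions only. Regions of 697 and 597 bases lay 349194 and 348349 bases away, towards the 3′ end, in all lists but innervated replicate 1.

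Fat4 and Dchs1, large cadherins that bind each other across cell contacts in planar polarity and Hippo signalling, had 14 and 5 regions. The 14 regions of Fat4 ran from 38887439 to 39011085 on chromosome 3 in groups of 6, 6 and 2, with a gap of 87882 bases between the first and the second group. The first group occupied 2.51 to 5.53% of the span, the second 74.9 to 77.6% and the third 98.1 to 99.1%. Protocadherins Pcdh1 and Pcdh19 had 5 and 4. Vcan, a large chondroitin sulfate proteoglycan of the extracellular matrix, had 7 regions over 49287 bases, Igsf10, an immunoglobulin-domain protein, had 7 over 21686, and Cspg4 had 6 over 13574.

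Ahnak, a giant scaffold protein under the plasma membrane, had 13 regions within 17947 bases, from 9000243 to 9018189 on chromosome 19. They covered 12907 bases, the most of the 117 genes, and the last and longest of them was 2350 bases. All 13 lay between 14.2% and 31.6% of the annotated span, in groups of 10 and 3. Cep350, a centrosomal protein, had 8 regions over 106723 bases. The microtubule-associated proteins Map1a and Map1b had 6 each, within 6878 and 10033 bases. Apc, the Wnt pathway scaffold that also binds microtubules, had 6 within 6250 bases, and Akap9, an anchor of protein kinase A at the Golgi and centrosome, had 5. Peak1, a pseudokinase of the cytoskeleton, had 6 regions over 55126 bases. Of the genes with no role assigned, Bod1l had 7 over 16252 bases and Pdzd2 had 6 over 219889.

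Of the members named next, Lmod3, Rbm20 and Hk2 have known roles in muscle. Lmod3, a leiomodin that nucleates thin filaments, and Rbm20, a splicing regulator of titin, had 4 regions each. Hk2, the hexokinase of insulin-responsive muscle, had 5, of which 1 lay at 0.302% of the span and 4 between 94.3 and 99.0%. Alpk2, an alpha-kinase, had 4, and Klhl24, a substrate adaptor of a ubiquitin ligase, had 4 as well. Lats2, a kinase of the Hippo pathway, had 5. Spen, a transcriptional repressor that binds RNA, had 6 that covered 9004 bases, the second most after Ahnak.

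Regions of these genes were shorter at the median than other shared regions. The median was 499 bases of covered sequence (quartiles 349 to 747, range 150 to 2350), beside 597 bases (quartiles 400 to 849, range 100 to 8633) for the 3969 shared regions of genes with 1 to 3. Median region length was 648 bases in genes with 1 shared region, 549 with 2, 501 with 3, 451 with exactly 4 and 500 with 6 or more. Genes with 1 region thus had the longest regions, and covered sequence per gene still grew, from a median of 648 bases with 1 to 1193 with 2, 1742.5 with 3 and 2486 among the 117. A long methylated stretch with a gap that no list bridges gives more and shorter regions, so width is not independent of the rule and no test is given. Regions with 2 or more blocks, whose peaks run over an intron, were 102 of 572 (17.8%), beside 1209 of 3969 (30.5%).

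Neighbouring regions of a gene were mostly close. Of the 455 gaps, 123 (27.0%) were at most 100 bases and 296 (65.1%) at most 1000, with a median of 398 bases (quartiles 99 to 2857.5, range 48 to 283103). Short gaps took few lengths: 99 bases occurred 50 times, 49 bases 35 times, 98 bases 32 times and 148 bases 19 times. Of the 191 gaps of at most 251 bases, 190 were within 2 bases of 49, 99, 149, 199 or 249. Peak borders in these lists thus lay on a grid of about 50 bases, and the smallest gaps are 1 step of that grid.

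**Figure D2:**
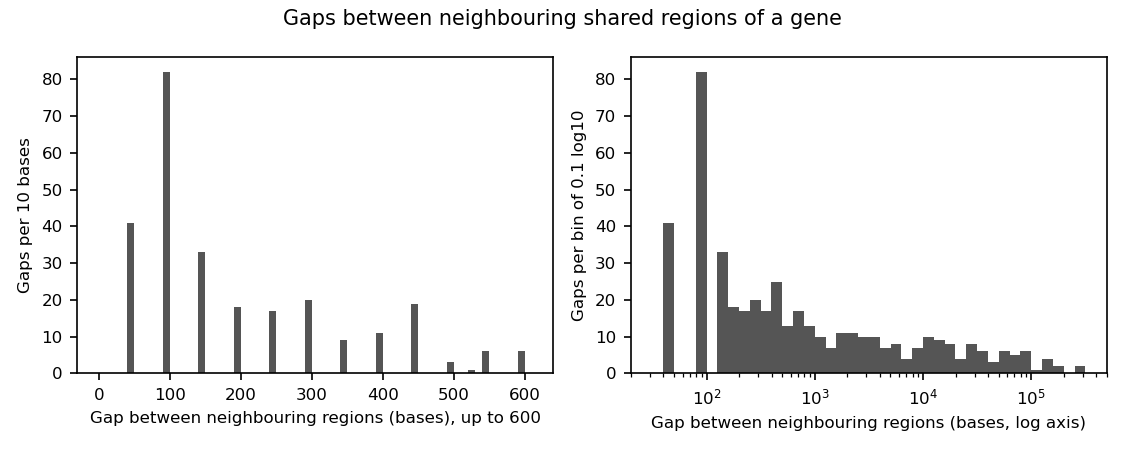
Gaps between neighbouring shared regions of a gene, in bases, as counts per 10 bases up to 600 (left) and per 0.1 log10 unit on a log axis (right). Short gaps stand at steps of about 50 bases, with the tallest bar just under 100, and a long tail reaches 283103 bases.

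How many of the genes stay above the limit depends on whether near neighbours count as separate. With shared regions no more than 100 bases apart counted as 1, 66 genes with 308 regions remained at 4 or more. With 1000 bases, 16 genes with 69 regions did. With groups formed by gaps of at most 1000 bases, 25 genes had all their regions in 1 group, 46 had 2 groups and 46 had 3 or more, and 42 genes had a group of at least 4. The narrowest median gaps were those of Ep300 and Sec16a (49 bases each), followed by 6 genes at 98 bases, among them AI464131. The widest were those of Aff1 (16319), Nsd1 (16002.5) and Ubn2 (13467.5). Sec16a organises exit sites of the endoplasmic reticulum, Aff1 belongs to a transcription elongation complex, and Ubn2 to a histone chaperone complex.

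From the first to the last region, the genes spanned a median of 24713 genomic bases (1989 to 287500), introns included. That was a median of 51.5% of the annotated gene, over 75% in 37 genes and under 10% in 15. In Ext1, a polymerase of heparan sulfate chains, the regions reached over 99.9% of the gene, in Hk2 over 99.6% and in Spen over 99.1%. At the other end stood Zfp407 (1.15%), Arhgap20 (2.27%) and Lmtk2 (3.06%). These shares leave out regions held by 3 lists, and Zfp407 and Lmtk2 had such regions outside the stated extent. The genes themselves were long. Their median RefSeq span was 70760 bases, beside 20567 for genes with 1 shared region, 28784 with 2 and 43291.5 with 3.

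Along the gene, regions leaned to the 3′ end, but less than the other shared regions did. A gene with several separate regions must hold some upstream of its last one, so place is not independent of the rule. The midpoint was at a median of 75.9% of the span from the 5′ end (quartiles 40.3 to 92.5), beside 85.1% (55.1 to 95.1) over 3973 placements of other shared regions. The last 10% of the span held 168 regions (29.4%), beside 40.3% of the others, and the first 50% held 31.3%, beside 22.3%. A start window was reached by 1.40% of the regions (8, over 117 genes) and by 4.11% of the others (163, over 2796 genes). A gene with more regions has a smaller part of them at its start, so these shares depend on the rule. A window was at hand for 86 of the 117 genes. Within a gene, the first region was at a median of 35.1% and the last at 94.3%. In 74 genes the last region was in the last 10% of the span, in 18 the first was in the first 10%, and 13 genes had both. In 44 genes no region lay in the first 50%. These positions count introns, and coding sequence and UTRs were not told apart.

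**Figure D3:**
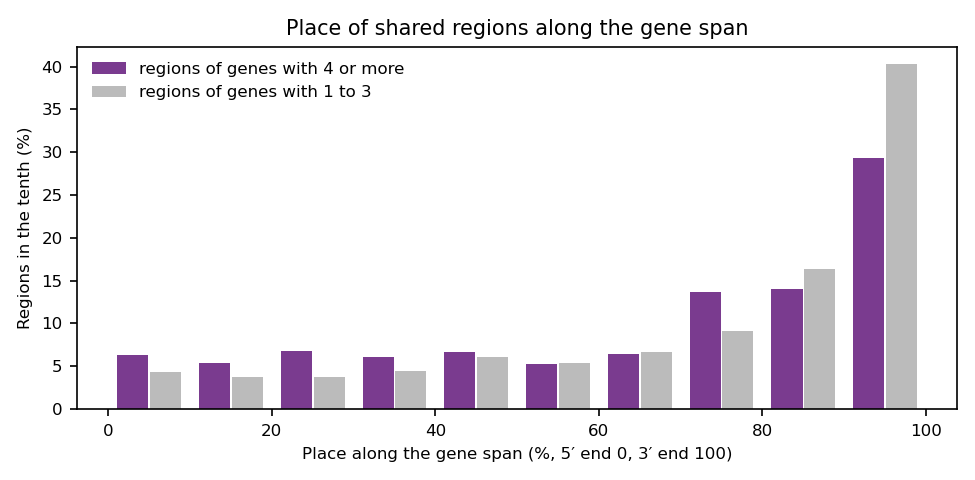
Share of regions (percent) in each successive 10% of the gene span, 5′ to 3′, for genes with 4 or more shared regions (purple) and genes with 1 to 3 (grey). The last bar is the tallest in both, at 29.4% and 40.3%, and the purple bars are higher throughout the first 50%.

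Regions of 1 gene often carried exactly the same score. The score is the value the authors gave each peak, from 0 to a small positive number, and its meaning is not given. In each list it took between 522 and 560 distinct values. Of all pairs of regions within a gene, 44.4 to 61.0% had an equal score in a list (51.2% ± 7.01, SD over 4 lists), beside 0.391 to 0.656% of pairs from different genes of the 117. Genes with 2 or 3 shared regions had 53.7 to 64.6%, so equality within a gene is not particular to the multiply methylated ones. In regions with more than 1 peak in a list, those peaks shared 1 score in 97.5 to 100% of cases.

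Equal scores were less frequent at larger distances in every list. Over the 4 lists, 91.1 to 100% of pairs at most 100 bases apart had an equal score, 70.1 to 89.3% from 101 to 1000 bases, 42.8 to 66.4% from 1001 to 10000, and 17.2 to 28.7% beyond. The ranges of successive distance classes do not overlap. Neighbouring regions were equal in 63.3 to 78.7%, and regions that were not neighbours in 33.6 to 50.9%. Of the 455 neighbouring pairs, 235 (51.6%) were equal in all 4 lists, 199 of them with a gap of at most 1000 bases, and 78 were equal in none, 71 of them with a larger gap. Denervated replicate 2 had the highest share in every distance class.

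**Figure D4:**
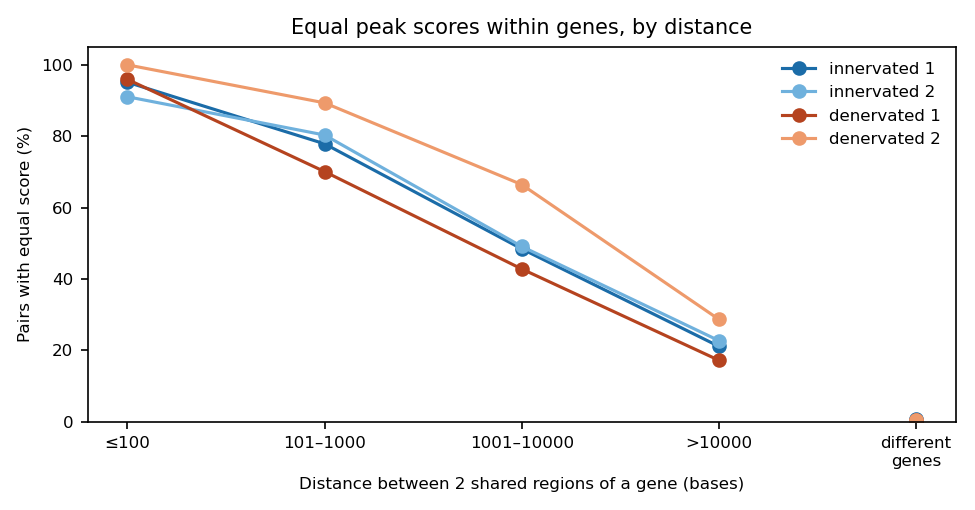
Percent of pairs of shared regions of a gene with exactly equal score, by distance in bases, 1 line per library, with pairs from different genes at the right. All 4 lines fall from at least 91.1% at up to 100 bases to at most 28.7% beyond 10000, and denervated replicate 2 is the highest throughout.

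Fat4 shows the pattern within 1 gene. In innervated replicate 1 its first 6 regions all scored 0.001, the next 6 all 0.0019 and the last 2 both 0.0004. In denervated replicate 1 the same groups scored 0.0016, 0.00095 and 0.00048, and in denervated replicate 2 they scored 0.00015, 0.00041 and 0.0001. In innervated replicate 2 the first 6 and the last 2 shared 0.00044 and the middle 6 had 0.0018. The borders of equal score thus fell at the long gaps of the gene in all 4 lists.

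In 19 genes a single score covered all regions in each of the 4 lists, among them Igsf10, Map1a, Ice1, Setd1b and Zeb1. Their median extent was 6896 bases, beside 30001 in the other 98. In a single list, 29.9 to 48.7% of the 117 genes had 1 score. The opposite occurred in 1 gene, Nup153, a nuclear pore protein, whose 4 regions had 4 different scores in every list. It is named after its values were seen. Ahnak, with 13 regions, had 6 and 11 distinct scores in innervated replicates 1 and 2, and 7 and 4 in denervated replicates 1 and 2.

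Scores were ranked within each list, and the smallest score was given percentile 100. Peaks of the 117 genes had a median percentile of 41.4 and 50.2 in innervated replicates 1 and 2, and of 50.7 and 51.9 in denervated replicates 1 and 2. Other shared peaks had 56.2, 55.5, 58.0 and 52.3 in the same order. The members were lower in all 4 libraries, with a mean difference of -6.97 ± 6.00 points (SD, n = 4) and an exact two-sided sign-flip permutation p = 0.125, the smallest that 4 libraries can give. Innervated replicate 1 weighed most, at -14.8 points, and denervated replicate 2 least, at -0.38, and without innervated replicate 1 the mean difference was -3.74 (exact sign-flip permutation p = 0.5). With only the 50% of peaks with the smallest scores, members were 2.04 points higher, and with only the 50% with the largest they were 2.27 points higher. Members were chosen anew there and numbered 22 and 21 genes, so these values concern a small part of the 117 genes and of each list.

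Between the groups, the denervated lists were both above the innervated ones in median percentile, by 5.52 points, with an exact two-sided permutation p = 0.333, the smallest that 2 against 2 can give. Without denervated replicate 2 the difference was -0.32. Median peak width in the members was 250 and 300 bases in innervated muscle and 299 and 301 in denervated muscle. The means were 275 ± 35.4 and 300.0 ± 1.41 bases (SD, n = 2 each), the groups overlapped, and the exact two-sided permutation p was 0.667. Peaks covered 69.4 and 76.5% of the bases of the 572 regions in the innervated lists and 71.7 and 80.9% in the denervated ones, again overlapping. Innervated replicate 1 was the lowest and denervated replicate 2 the highest in width, percentile and coverage.

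Bases covered by peaks within the shared regions were summed per gene and library. In 31 of the 117 genes (26.5%) both denervated values were above both innervated ones, beside 16.3% of the 2913 genes with a shared region. In 17 genes (14.5%) both were below, beside 15.1%, and in 69 genes the groups overlapped or tied. Sums in the 117 genes ran over 4 or more regions, while 1829 of the 2913 genes had only 1. The shares were not matched for number of regions. For the median score percentile per gene, 26 genes (22.2%) were higher in both denervated lists, beside 17.2% of all, and 15 (12.8%) were lower, beside 17.8%. Denervated replicate 2 covered most of the member regions of any library, and its part in the excess of higher over lower genes was not tested. With 1 library left out, a single list stands for its group and more genes qualify as members. Without denervated replicate 2, 56 of 176 members were higher (31.8%, beside 24.5% of all genes) and 68 were lower (38.6%, beside 33.5%). Without innervated replicate 1, 51 of 155 were higher (32.9%, beside 24.4%) and 56 lower (36.1%, beside 33.0%). Which direction was more common thus depended on the library left out. Without denervated replicate 1 it was 77 of 157 higher (49.0%, beside 37.2%) and 33 lower (21.0%, beside 26.1%), and without innervated replicate 2 it was 80 of 163 (49.1%, beside 37.6%) and 34 (20.9%, beside 21.8%). The distance between the groups was a median of 200 bases over the 48 genes, and at most 60 bases, about 1 grid step, in 12 of them. With 2 libraries per group the exact permutation test of a single gene cannot go below p = 0.333, so the separations are given as values.

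**Figure D5:**
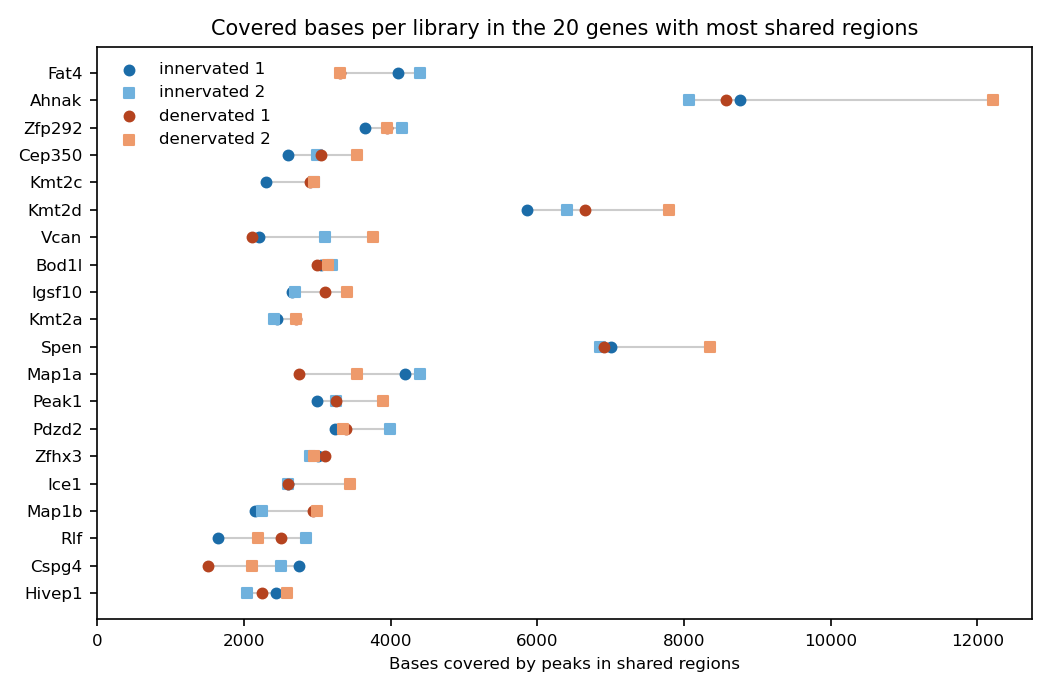
Bases covered by peaks in shared regions, per library, in the 20 genes with most shared regions, innervated in blue and denervated in red and orange. Cep350, Kmt2d, Igsf10, Kmt2a and Map1b have both denervated values above both innervated ones, and Fat4, Map1a and Cspg4 have them below. Ahnak is set apart by denervated replicate 2 at 12210 bases.

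Arhgap35, the p190A GTPase-activating protein that restrains RhoA, had the widest separation upward. Its peaks covered 2457 and 2905 bases in innervated replicates 1 and 2, and 3853 and 4103 in denervated replicates 1 and 2. Both denervated values were higher, with a gap of 948 bases between the groups. Map1b, a microtubule-associated protein of growing axons and injured nerve, had 2150 and 2247 bases in innervated and 2946 and 2996 in denervated muscle, and its groups were 699 bases apart. The median score percentile of Map1b was instead lower in both denervated lists, at 35.6 and 27.0 against 36.5 and 36.3. That of Arhgap35 was higher in both, at 64.3 and 43.7 against 29.8 and 27.4. Dnmbp, an exchange factor for Cdc42, had 1204 and 1104 against 1801 and 2001, the largest ratio of means among those 31 and 17 genes (1.65).

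Among chromatin genes, Kmt2d had 5854 and 6404 bases in innervated and 6654 and 7798 in denervated muscle, and Kmt2a had 2459 and 2407 against 2708 and 2709. In both, the groups did not overlap and lay about 250 bases apart. Chd6 was also higher in both denervated lists. Kat6b was lower, with 2450 and 2599 against 2350 and 2050, and Kmt2c overlapped, with 2307 and 2952 against 2905 and 2955. Of the 9 listed chromatin regulators among the members, 3 were thus higher and 1 lower, beside 16.3% and 15.1% of all genes. Of the 12 listed zinc finger and homeobox factors, 3 were higher (Zfp644, Prdm2 and Tcf20) and 2 lower (Zfhx4 and Zfp609), and with so few genes these counts set neither list apart from that background. Zfp644 had 1851 and 1602 against 2301 and 2400.

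Fat4 had fewer covered bases in both denervated lists, 3305 and 3306, than in the innervated ones, 4104 and 4405. Map1a, related to Map1b, went the other way from it, with 4193 and 4396 bases in innervated and 2752 and 3549 in denervated muscle. Cspg4 had 2756 and 2507 against 1508 and 2109. The groups were 798, 644 and 398 bases apart in these genes. Igsf10 was higher, with 2655 and 2703 against 3101 and 3402. Ahnak overlapped: 3 libraries lay between 8066 and 8769 bases, and denervated replicate 2 alone reached 12210.

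Besides the shared regions, 95 of the 117 genes had 308 other regions that were in 1 list (143), 2 lists (74) or 3 lists (91). They were short, with a median of 151 bases, and lay a median of 298.5 bases from the nearest shared region, 95 of them within 100 bases. Denervated replicate 2 alone held 63 of them, innervated replicate 2 alone 42, innervated replicate 1 alone 20 and denervated replicate 1 alone 18. Regions in both denervated lists and neither innervated list numbered 11 (3.57%), beside 5.61% of the 8575 regions not in all lists. Regions in both innervated lists only numbered 13 (4.22%), beside 6.43%. Both shares were below those of the background.

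Kmt2a had 2 of the 11, at chr9:44849401-44849551 and chr9:44849701-44850000, which were 27136 bases or more from its nearest shared region. A nearer region, at chr9:44847602-44848102, had peaks in innervated replicate 1 and in both denervated lists. An innervated list thus also held a peak in this part of the gene. Fat4 had 2 of the 13, of which 1 lay 148 bases from a shared region and the other 10234. The other genes with a region in 1 group only had 1 each. Map1b and Spen had theirs in denervated muscle 99 bases from a shared region, Igsf10 had 1 there at 1097 bases and Dchs1 at 5719, and Cep350 had 1 in innervated muscle at 48 bases. Of the 10 genes with a denervated-only region, 5 (Akap9, Ankrd12, Igsf10, Kmt2a and Map1b) also had more covered bases in both denervated lists, 0 had fewer and 5 overlapped. Of the 12 with an innervated-only region, 5 (among them Fat4) had fewer, 3 (Atxn1, Cep350 and Tcf20) had more and 4 overlapped. Over all 117 genes, 26.5% had more and 14.5% fewer. Over the 2913 genes with a shared region, it was 16.3% and 15.1%. The counts rest on 10 and 12 genes, and whether the directions go together was not tested.

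For some members the gene name itself is uncertain. In 16 genes at least 1 region lay in the span of another RefSeq gene. In 2 of these the other gene is protein coding and on the same strand: all 4 regions of D830031N03Rik lie within Macf1, a giant crosslinker of actin and microtubules, and all 4 of Zbed6 lie within Zc3h11a. All 4 regions of Arhgap20 lie opposite Arhgap20os. Slfn8 has near-identical relatives in the Schlafen cluster, and reads of its 4 regions may be shared with them.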

How the data were processed

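Enriched and input RNA was sequenced in 8 libraries, and 4 deposited peak lists, 1 per enriched library and not pooled, were used. Per the submitters' processing notes, STAR 2.4.2a, ChIPseeker and mm10 were used. The peak caller is not given in the sources used here. Each list gives start, end, blocks, strand and gene name, and a value named score per the file headers, which the authors deposited without stating its meaning. Small scores were read as strong, which is uncertain, and scores were compared only within a list, as ranks or as exact equality.

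Peaks were linked by at least 1 shared base of blocks on the same strand with Python 3.11.15, numpy 2.4.6 and scipy 1.17.1, and figures were drawn with matplotlib 3.10.9. Bases are counted in blocks. A region's place is its midpoint along the RefSeq span (GRCm38.p6, of which mm10 holds the same chromosome coordinates). Of 117 names, 112 matched RefSeq by symbol and 5 by an older symbol. The linking was tested on simulated data. Groups were compared over libraries with exact permutation tests. The planned test of width against other shared peaks is not reported, because the rule affects width. Members, gene lists and alternatives were chosen with earlier results of these data known. Genes named were the 20 with most regions, the first 4 of each list, extremes of spacing and extent, examples beside the limit, and genes with 2 or more group-only regions. Others were named for their known role or their values after these were seen. Alternatives were reciprocal overlap, the 50% of smaller or larger scores, joining of near peaks, left-out libraries and the minimum of regions. Depth is unknown, so no counting interval is given.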

Additional observations from a re-analysis of the deposited data

How the results depend on the processing

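Numbers of members moved with most definitions, but not when the gene had to be named in all 4 lists (572 regions in 117 genes). There were 372 regions in 79 genes with a reciprocal overlap of 50%, of which 72 were among the 117, 100 regions in 22 genes with the 50% of smallest scores, 105 in 21 genes with the 50% of largest scores, and 343 in 72 genes with peaks within 100 bases joined. A minimum of 3 gave 1274 regions in 351 genes and a minimum of 5 gave 316 in 53. Counting shared regions within 100 bases as 1, which was added after seeing the data, gave 308 in 66 genes, and within 1000 bases 69 in 16. Without 1 library, regions ranged from 772 to 873 and genes from 155 to 176, both highest without denervated replicate 2, when 115 of the 117 genes still qualified.

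Under the same 4 settings in that order, where the value moved, median length was 450.5 (reciprocal), 450 (largest scores) and 546 (joined), and 447 to 449 without 1 library. Median spacing was 448, 247.5, 447 and 698, and 348 to 349 without 1 library. Median place was 79.5, 77.3, 78.9 and 77.7, and 76.3 to 78.0 without 1 library. Equal scores rose to 92.5% of pairs with the smallest scores. Denervated-only regions were 21, 2, 7 and 6, and innervated-only regions 23, 4, 4 and 7. Leaving out any library made these 42 to 101 and 41 to 69, since a single list then decides a group.

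Signs turned for several differences. Peak width, denervated minus innervated, was -25 with the smallest scores and ranged from -24.5 (without innervated replicate 1) to 25.5 without 1 library. The percentile difference was -4.26 with the smallest scores and ranged from -0.32 (without denervated replicate 2) to 7.61. Members minus other shared peaks was 2.04 and 2.27 points with the 50% of smallest and of largest scores, where members were chosen anew. Genes with more covered bases in both denervated lists ranged from 51 to 80 and genes with fewer from 33 to 68 without 1 library, each library moving at least 1 count by over 1.5 times. With number as a replicate block, the width difference remained 25 and the percentile difference 5.52, each with an exact sign-flip p = 0.5. The labels do not say that numbers pair animals, and 2 pairs cannot test it. Depth limits every absence of a peak.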
